A study of Mus musculus with 25 samples.

Results

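The 37 genes described here encode enzymes of cholesterol and fatty acid synthesis and the proteins that control this pathway, measured in mouse lung after thoracic irradiation with or without compounds that act on receptors for sphingosine 1-phosphate. The genes were taken from a list of symbols: 19 of sterol synthesis, 6 of its control and of sterol transport, and 12 of fatty acid synthesis. This list was chosen with earlier results of these data known. Counts of its genes beside shares of all genes are therefore descriptions and not a test of the list. A gene was read from the probe set that carries its symbol alone and had the highest mean over all 25 arrays, which gave 36 genes of the 18193 with such a probe set; Acat2 has none and is not analysed here. All 36 passed the filter on low signal, as did 12937 genes in all. Levels are log2(signal + 16), so that a difference of 1 is a doubling of signal plus 16, and levels of different probe sets cannot be ranked against each other. All mice were wild-type C57BL/6J females aged 14 to 17 weeks and weighing 20 to 25 g. The control group was given phosphate-buffered saline (PBS, n = 4). The fTyS group was given (S)-FTY-phosphonate, the SEW group SEW-2871 and the FTY group FTY720, each by intraperitoneal injection of 0.1 mg/kg 2 times a week (n = 3 each). Mice of the radiation group had a single thoracic dose of 25 Gy (n = 3). In 3 further groups of n = 3 each, named radiation+fTyS, radiation+SEW and radiation+FTY, this dose was combined with the compound at the same dose and schedule. The time from irradiation to collection is not given in the sources used here, and nothing says whether the radiation group received PBS. FTY720 (fingolimod) is a sphingosine analog that is phosphorylated in the body, (S)-FTY-phosphonate carries a phosphonate in place of that phosphate, and SEW-2871 is an agonist of the receptor S1pr1 that is not built like sphingosine.

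Cholesterol is built from acetyl-CoA through mevalonate, the isoprenoid farnesyl diphosphate, squalene and lanosterol, and fatty acids from acetyl-CoA through malonyl-CoA. When membrane sterol falls, Scap carries the SREBP transcription factors (encoded by Srebf1 and Srebf2) from the endoplasmic reticulum to the Golgi, where they are cut and released to the nucleus; when sterol is high, Insig1 and Insig2 hold Scap back. In lung, alveolar type 2 cells use both pathways to make surfactant lipid, and macrophages clear that lipid; fat tissue around the airways and in the mediastinum also makes fatty acids.

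The start regions of genes whose probe sets carried the comparisons below were read for letters that SREBPs and their partners are known to bind. Windows came from RefSeq on GRCm38.p6, and 30 of the 37 genes had at least 1, 40 windows in all. The letters searched, on both strands, were TCACNCCAC and ATCACNNCA, 2 forms of the sterol regulatory element, CCAAT, bound by NF-Y, and GGGCGG, bound by Sp1. Below are the 200 bases before the start, 5′ to 3′ on the gene's strand, with every match on either strand in capitals. Cyp51 (chr5:4104698-4104897, minus strand), Dhcr7 (chr7:143830014-143830213, plus strand), Tm7sf2 (chr19:6067851-6068050, minus strand), Idi1 (chr13:8885406-8885605, plus strand), Nsdhl (chrX:72918321-72918520, plus strand) and Insig1 (chr5:28071212-28071411, plus strand) are shown because they changed in irradiated lung. Fasn (chr11:120824548-120824747, minus strand) and Elovl6 (chr3:129532186-129532385, plus strand) are shown as genes of the fatty acid branch.
Cyp51: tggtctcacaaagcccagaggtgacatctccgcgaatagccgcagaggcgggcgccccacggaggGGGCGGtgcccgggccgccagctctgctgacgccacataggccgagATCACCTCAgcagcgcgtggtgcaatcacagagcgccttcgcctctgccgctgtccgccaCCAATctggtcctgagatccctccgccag
Dhcr7: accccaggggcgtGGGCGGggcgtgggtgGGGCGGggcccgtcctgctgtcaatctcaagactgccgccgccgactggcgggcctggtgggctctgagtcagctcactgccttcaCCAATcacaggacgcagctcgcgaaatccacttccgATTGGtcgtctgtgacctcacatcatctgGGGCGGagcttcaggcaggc
Tm7sf2: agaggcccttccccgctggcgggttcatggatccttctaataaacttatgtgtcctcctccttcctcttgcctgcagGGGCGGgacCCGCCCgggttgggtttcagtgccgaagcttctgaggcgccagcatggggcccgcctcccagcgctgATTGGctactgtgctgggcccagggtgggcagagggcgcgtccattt
Idi1: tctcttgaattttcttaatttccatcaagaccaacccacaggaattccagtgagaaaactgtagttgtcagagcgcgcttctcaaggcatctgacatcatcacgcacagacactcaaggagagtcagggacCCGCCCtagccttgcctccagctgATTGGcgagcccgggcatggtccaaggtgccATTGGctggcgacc
Nsdhl: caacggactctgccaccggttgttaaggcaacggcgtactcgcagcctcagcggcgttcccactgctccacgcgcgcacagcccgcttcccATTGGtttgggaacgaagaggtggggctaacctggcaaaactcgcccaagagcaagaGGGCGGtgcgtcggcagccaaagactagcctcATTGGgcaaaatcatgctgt
Insig1: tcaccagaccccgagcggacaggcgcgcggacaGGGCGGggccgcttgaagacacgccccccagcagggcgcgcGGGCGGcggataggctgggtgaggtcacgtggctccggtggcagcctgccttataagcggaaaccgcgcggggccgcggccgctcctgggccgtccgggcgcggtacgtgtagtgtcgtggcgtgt
Fasn: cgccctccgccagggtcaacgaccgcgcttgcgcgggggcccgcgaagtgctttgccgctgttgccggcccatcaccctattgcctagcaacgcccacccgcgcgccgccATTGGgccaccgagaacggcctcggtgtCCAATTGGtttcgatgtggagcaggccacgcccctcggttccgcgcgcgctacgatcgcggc
Elovl6: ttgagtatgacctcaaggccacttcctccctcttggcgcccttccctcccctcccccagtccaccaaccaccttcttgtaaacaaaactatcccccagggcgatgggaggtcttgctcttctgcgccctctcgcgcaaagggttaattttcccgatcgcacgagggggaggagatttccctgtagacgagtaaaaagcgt
The shown Cyp51 window holds ATCACCTCA, an instance of the second sterol element form, 89 bases before the start, and none of the other 7 does. A CCAAT match stands 29 bases before the start in Cyp51, 85 and 49 in Dhcr7, 47 in Tm7sf2, 14 and 45 in Idi1, 20 and 109 in Nsdhl, and 62, 59 and 90 in Fasn, where the matches at 62 and 59 overlap. GGGCGG occurs in the first 6 windows, and the Elovl6 window holds none of these letters. Over the whole windows of 250 bases before the start, CCAAT was in 15 of 19 windows of sterol genes and 5 of 11 of fatty acid genes, against 33.85% of all 32851 windows. GGGCGG was in 15 of 19 and 6 of 11, against 32.7% of all windows. The first sterol element form was in Hmgcs1 alone of the members with a window (1.05% of all windows), and the second in Cyp51, Msmo1 and Srebf2 (2.30%). Dhcr7 had 3 windows, and the matches given for it are those of the 1 shown. The 15 sterol windows with the letters bound by NF-Y belonged to 15 genes, so of the Dhcr7 windows only the shown one held them. A match is a description of the letters and shows no binding, and a missing match says only that the letters are not in that window.

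Several facts of the arrays touch the results below. Adipocyte markers (7 of 10 passed the filter, among them Adipoq, Cidec and Retn) averaged 7.38 to 11.43 on single arrays and varied within groups, with 7.38, 11.29 and 8.11 on the 3 radiation+fTyS arrays. Brown fat markers ran from 6.72 to 10.79 and skeletal muscle markers from 6.71 to 12.75, while markers of alveolar type 2 cells, which define the labelled tissue, stayed between 12.12 and 12.60. Neutrophil markers (6 of 10 passed the filter, among them S100a8 and S100a9) averaged 9.92 to 10.57 on the radiation arrays and 7.46 to 8.52 on the control arrays. The library labelled control replicate 4 stood at 10.62 in the mean of 7 genes induced by p53 (Cdkn1a, Phlda3, Ccng1, Mdm2, Eda2r, Zmat3 and Aen), against 9.35 to 9.61 on the other control arrays and 10.51 to 10.71 on the 12 irradiated arrays. Results against control are therefore also given without it. In whole lung, fewer cells of a type and less RNA per cell cannot be told apart.

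The sterol genes moved as a set of small differences. The mean of the 18 sterol genes was 9.08, 9.05 and 9.25 on the radiation arrays and 9.14, 9.30, 9.34 and 9.33 on the control arrays. It was 9.34, 9.55 and 9.33 with radiation+fTyS, 9.46, 9.39 and 9.50 with radiation+SEW, and 9.54, 9.39 and 9.38 with radiation+FTY. All 9 arrays of radiation with a compound were above all 3 radiation arrays, and among the control arrays only replicate 1 was below the highest radiation array. The radiation group had the lowest group mean of all 8 for 10 of the 18 sterol genes, and a group of radiation with a compound had the highest for 16 of 18 (radiation+fTyS for 5, radiation+SEW for 6 and radiation+FTY for 5). The fatty acid genes were ordered otherwise, with the lowest mean in control for 7 of 12 and the highest in radiation+FTY for 9 of 12. These orders were not counted over all genes tested, so the counts cannot be read as particular to the members.

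**Figure D1:**
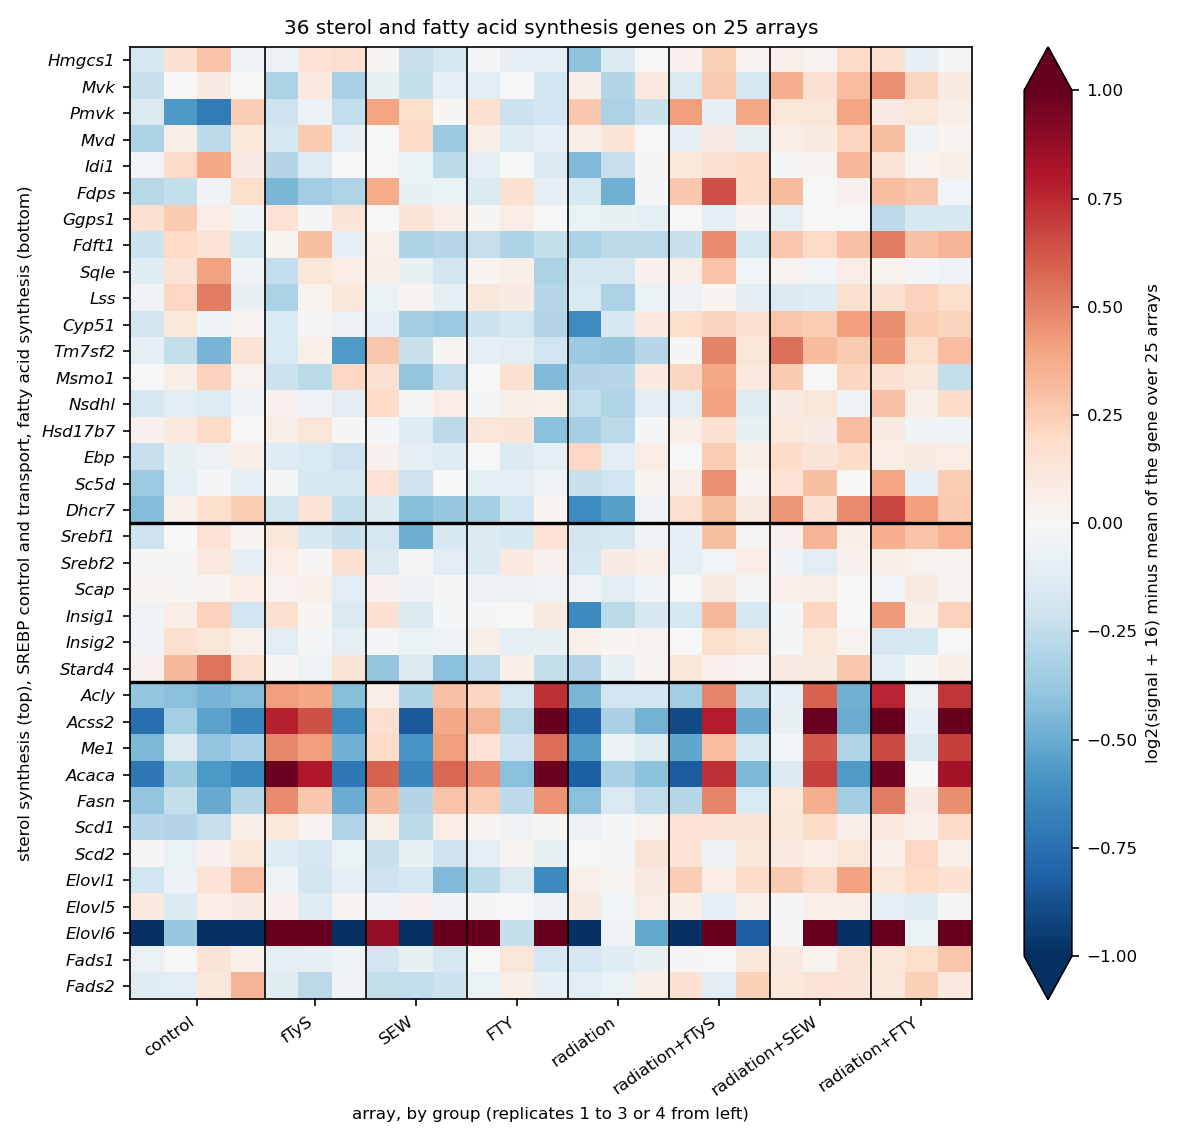
Levels of the 36 genes (rows, by role) on the 25 arrays (columns, by group), as the difference from the gene's mean over all arrays in log2 units, with colours clipped at 1 in either direction. Sterol rows are mostly below their mean on the radiation arrays and above it on the 9 arrays of radiation with a compound, while Acly, Acss2, Me1, Acaca, Fasn and Elovl6 vary together from array to array within groups.

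Each compound was added to radiation to find what it changes in irradiated lung. Sterol synthesis genes were higher with all of them, 17 of 18 above 0 with radiation+fTyS, 18 of 18 with radiation+SEW and 17 of 18 with radiation+FTY, with median log2 fold changes of 0.29, 0.31 and 0.30 against 0.01, 0.03 and 0.03 over all genes tested. These comparisons share the 3 radiation arrays. Of the 36 members, 8 rose with radiation+FTY, 3 with radiation+SEW and 0 with radiation+fTyS, and none fell. Among all genes, 1.94%, 1.38% and 0.417% were called higher in these comparisons, and 1.08%, 1.11% and 0.441% lower. With radiation+fTyS 12 of 36 members had an unadjusted p under 0.05, with radiation+SEW 15 and with radiation+FTY 18. The share of all genes with such a p is not given for these comparisons, so these counts cannot be read as particular to the members. Such p-values were common elsewhere, with 1942 of 12937 genes in fTyS against control and 3994 in SEW against control. The groups did not overlap, with the compound higher, for 11 members with radiation+fTyS (9.58% of all genes), 17 with radiation+SEW (17.7%) and 18 with radiation+FTY (17.6%). Ggps1 and Insig2 were lower without overlap with radiation+FTY (10.1% of all genes).

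Dhcr7, the reductase that makes cholesterol in the last step of one arm of the pathway, had the largest differences of the 18 sterol genes with each compound. Its level was 7.19, 7.27 and 7.77 on the radiation arrays, 7.98, 8.12 and 7.91 with radiation+fTyS, 8.25, 7.97 and 8.29 with radiation+SEW, and 8.49, 8.23 and 8.08 with radiation+FTY. Every array of radiation with a compound was above every radiation array, and the 4 control arrays, at 7.39, 7.87, 7.99 and 8.06, overlapped with both. Dhcr7 rose by 0.86 ± 0.17 (SE) with radiation+FTY (adjusted p = 0.0163) and by 0.76 ± 0.17 with radiation+SEW (adjusted p = 0.0239). With radiation+fTyS the difference was 0.59 ± 0.17 (adjusted p = 0.116).

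Cyp51 removes a methyl group from lanosterol, the first sterol of the pathway. Its level was 9.03, 9.49 and 9.75 with radiation, a spread of 0.36 (SD, n = 3), and 9.83, 9.88 and 9.82 with radiation+fTyS. With radiation+SEW it was 9.94, 9.91 and 10.06, and with radiation+FTY 10.12, 9.91 and 9.88. All 9 arrays lay above the 3 radiation arrays, and the nearest was at 9.82 against 9.75. Cyp51 rose by 0.54 ± 0.12 with radiation+SEW (adjusted p = 0.0248) and by 0.54 ± 0.12 with radiation+FTY (adjusted p = 0.0276), and differed by 0.41 ± 0.12 with radiation+fTyS (adjusted p = 0.132). Without radiation replicate 1, the lowest array, the differences from radiation shrank to 0.35 for both SEW and FTY and were no longer called.

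Fdft1, squalene synthase, joins farnesyl units in the step that commits them to sterol. The radiation arrays were close together at 9.79, 9.84 and 9.85. The level was 9.89, 10.58 and 9.94 with radiation+fTyS, 10.38, 10.31 and 10.40 with radiation+SEW, and 10.62, 10.40 and 10.45 with radiation+FTY, so that only 1 of the 3 radiation+fTyS arrays was as high as the arrays with the other compounds. That array, replicate 2, also had the highest adipocyte mean of the irradiated arrays. Fdft1 rose by 0.66 ± 0.15 with radiation+FTY (adjusted p = 0.0259), and the differences with radiation+SEW and radiation+fTyS were 0.53 ± 0.15 (adjusted p = 0.0622) and 0.31 ± 0.15 (adjusted p = 0.412).

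Tm7sf2, a sterol reductase that acts after Cyp51, was at 7.50, 7.49 and 7.58 with radiation and at 7.88, 8.36 and 7.99 with radiation+fTyS. It was at 8.41, 8.19 and 8.13 with radiation+SEW and at 8.30, 8.04 and 8.17 with radiation+FTY. No array of radiation with a compound was as low as the highest radiation array. Tm7sf2 rose by 0.72 ± 0.16 with radiation+SEW (adjusted p = 0.0231) and by 0.65 ± 0.16 with radiation+FTY (adjusted p = 0.0362), and the difference with radiation+fTyS was 0.55 ± 0.16 (adjusted p = 0.119).

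**Figure D2:**
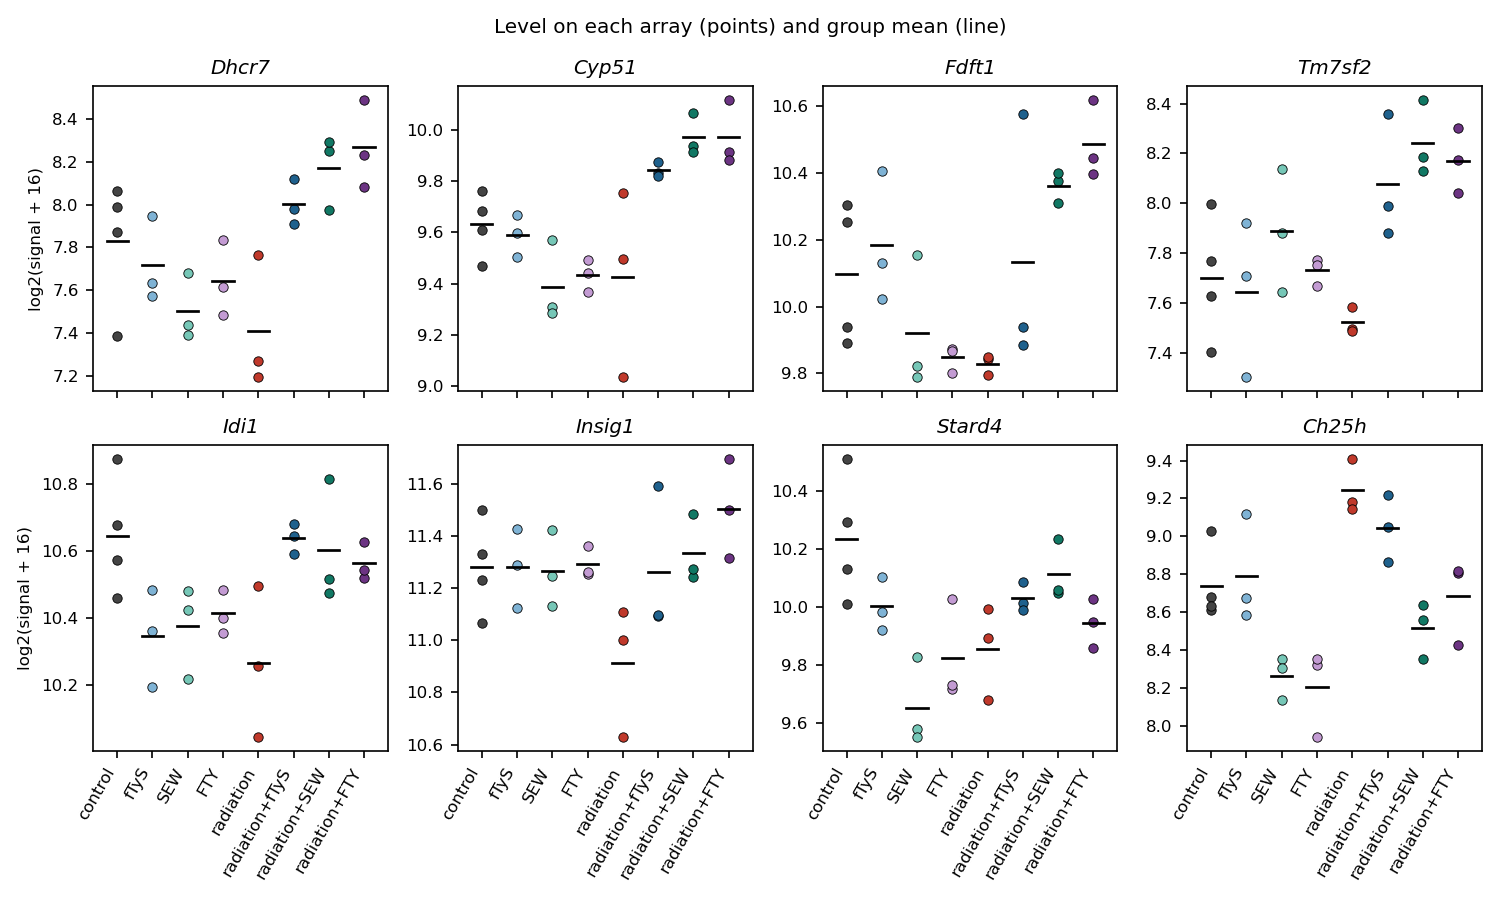
Levels of 8 genes in log2(signal + 16), with each point an array, each bar the group mean and the 8 groups along the x axis. For Dhcr7, Cyp51, Fdft1 and Tm7sf2 the 9 arrays of radiation with a compound lie above the 3 radiation arrays, while Stard4 is lowest with SEW alone and Ch25h is highest with radiation.

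Over all 12937 genes, 2.72% had every array of radiation with a compound above every radiation array, and the 4 genes just described were 4 of the 18 sterol genes that did. Nsdhl, a decarboxylase of the demethylation steps, rose with radiation+FTY by 0.40 ± 0.10 (adjusted p = 0.0418). The Nsdhl call was lost on leaving out 12 of the 25 arrays in turn, and in 5 of the 7 alternative runs. The sterol genes named next were not called when any compound was added to radiation. Idi1, which makes the building block dimethylallyl diphosphate, was at 10.04, 10.26 and 10.50 with radiation, and at 10.59, 10.64 and 10.68 with radiation+fTyS, 10.47, 10.52 and 10.82 with radiation+SEW and 10.63, 10.52 and 10.54 with radiation+FTY. The highest radiation array overlapped with 1 of the 9. The differences of Idi1 were 0.37 ± 0.12, 0.34 ± 0.12 and 0.30 ± 0.12, none called (adjusted p = 0.139, 0.129 and 0.133). Fdps, farnesyl diphosphate synthase, had its largest difference with radiation+fTyS, 0.58 ± 0.15 (adjusted p = 0.0799), against 0.34 and 0.40 with SEW and FTY. Hmgcs1, the synthase at the head of the mevalonate pathway, differed by 0.28, 0.27 and 0.20, and Sqle, squalene epoxidase, by 0.20, 0.12 and 0.09. Mvd, which makes isopentenyl diphosphate, differed by -0.09, 0.06 and 0.03, and Ebp, a sterol isomerase, by 0.04, 0.11 and 0.02. Ggps1, which leads farnesyl units to prenylation and not to sterol, differed by 0.06, 0.05 and -0.11, and with radiation+FTY its 3 arrays lay below the 3 radiation arrays.

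**Figure D3:**
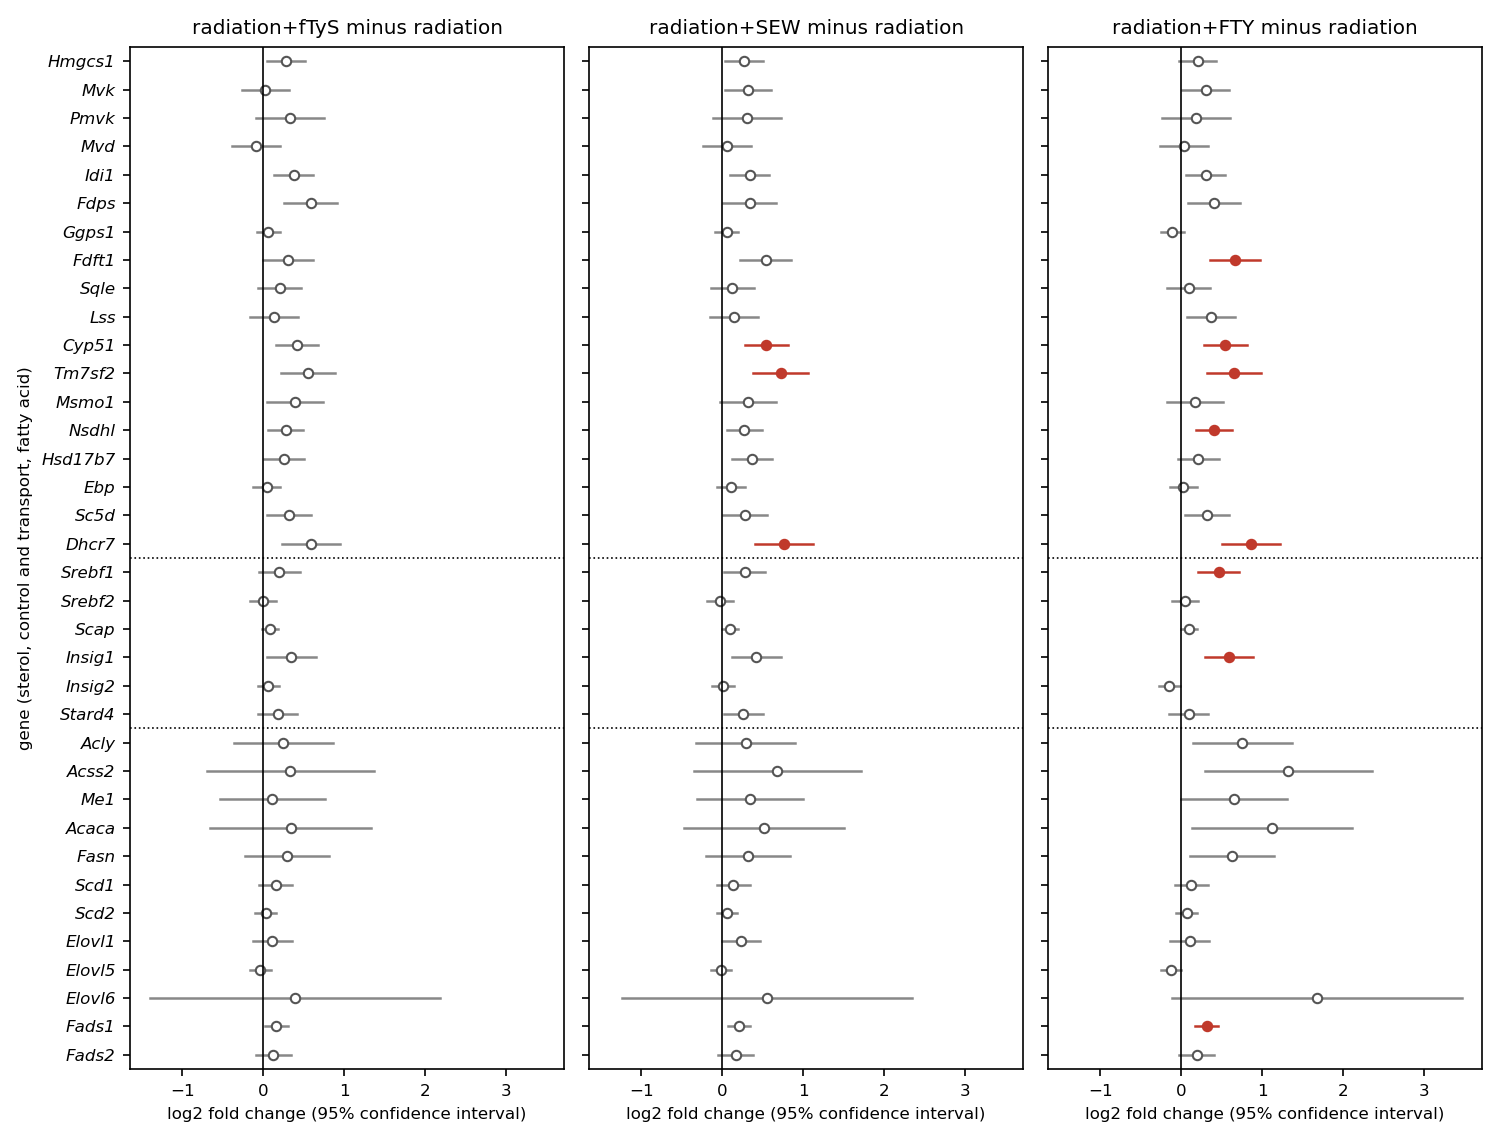
Log2 fold changes of the 36 genes for radiation with fTyS, SEW or FTY minus radiation (x axis), with 95% confidence intervals from limma and filled red points for genes called at an adjusted p of at most 0.05. The red points are 0 for fTyS, 3 for SEW and 8 for FTY, and the intervals of Elovl6, Acss2 and Acaca are far wider than those of the sterol genes.

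The calls against radiation rested on few arrays. For radiation+FTY the count of 8 became 0 on removal of replicate 1 of either group. It became 3 on removal of radiation replicate 2, and 4 on removal of radiation replicate 3 or of radiation+FTY replicate 2 or 3. For radiation+SEW the count of 3 became 0 without radiation replicate 1 or 2 or without radiation+SEW replicate 1 or 3, 1 without radiation+SEW replicate 2, and 5 without radiation+fTyS replicate 2, whose group only lends to the estimate of spread. For radiation+fTyS the count of 0 became 3 (Cyp51, Dhcr7 and Idi1) without radiation replicate 3. No called difference changed its sign in any of these. Neutrophil markers moved with the same comparisons: their mean was 8.26 to 8.66 with radiation+fTyS, 7.40 to 8.82 with radiation+SEW and 8.64 to 10.28 with radiation+FTY, against 9.92 to 10.57 with radiation. Their part in the sterol differences was not tested. Alveolar type 2 markers averaged 12.38 to 12.47 on the radiation arrays and 12.26 to 12.52 on the 9 others, and 0 of their 9 tested genes was called in any of these comparisons.

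Of the regulators, Insig1 and Srebf1 rose with radiation+FTY and Srebf2 was nearly flat. Insig1, itself a target of the SREBPs, was at 10.63, 11.00 and 11.11 with radiation, 11.09, 11.59 and 11.10 with radiation+fTyS, 11.24, 11.48 and 11.27 with radiation+SEW, and 11.69, 11.31 and 11.50 with radiation+FTY. The control arrays, at 11.23, 11.33, 11.50 and 11.07, overlapped with all of these groups except that only replicate 4 was below a radiation array. Insig1 rose by 0.59 ± 0.14 with radiation+FTY (adjusted p = 0.0319), and the differences with SEW and fTyS were 0.42 ± 0.14 (adjusted p = 0.125) and 0.35 ± 0.14 (adjusted p = 0.295). Its level moved with the adipocyte markers (Pearson r of 0.64 over 25 arrays, and 0.79 after the group means were removed). Srebf1, whose protein drives fatty acid genes most, was at 10.44, 10.46 and 10.59 with radiation, 10.54, 10.93 and 10.62 with radiation+fTyS, 10.67, 10.97 and 10.68 with radiation+SEW, and 10.99, 10.91 and 10.97 with radiation+FTY. The radiation+FTY arrays were tight (SD of 0.04, n = 3) and above all radiation arrays. Srebf1 rose by 0.46 ± 0.12 with radiation+FTY (adjusted p = 0.0469). That call was lost on leaving out 15 of the 25 arrays in turn, and in 5 of the 7 alternative runs.

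Srebf2, whose protein drives sterol genes most, was at 9.40, 9.65 and 9.64 with radiation, 9.48, 9.55 and 9.65 with radiation+fTyS, 9.54, 9.47 and 9.61 with radiation+SEW and 9.63, 9.61 and 9.60 with radiation+FTY. All groups overlapped, and the differences from radiation were -0.01, -0.03 and 0.05, each with an SE of 0.08. Control arrays were at 9.59, 9.59, 9.67 and 9.49. Insig2 was at 10.12, 10.08 and 10.09 with radiation and at 9.90, 9.88 and 10.06 with radiation+FTY, lower on every array by a mean of 0.15 ± 0.06 but not called (adjusted p = 0.162), and overlapped with radiation in the other groups. Scap differed by 0.09, 0.10 and 0.10, each ± 0.05, with all 9 arrays above the 3 radiation arrays and no call. Stard4, a carrier of sterol between membranes, was at 9.68, 9.89 and 9.99 with radiation, 10.09, 10.01 and 9.99 with radiation+fTyS, 10.05, 10.06 and 10.23 with radiation+SEW and 9.86, 9.95 and 10.03 with radiation+FTY. Its differences, 0.18, 0.26 and 0.09, were not called.

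The fatty acid branch gave 1 call among its 12 genes in the comparisons with radiation. Fads1, the delta-5 desaturase that makes arachidonic acid, was at 10.11, 10.15 and 10.21 with radiation, 10.29, 10.27 and 10.39 with radiation+fTyS, 10.37, 10.31 and 10.41 with radiation+SEW and 10.40, 10.46 and 10.55 with radiation+FTY. All 9 arrays were above the 3 radiation arrays. Fads1 rose by 0.31 ± 0.07 with radiation+FTY (adjusted p = 0.0204), and differed by 0.21 ± 0.07 with SEW (adjusted p = 0.111) and 0.16 ± 0.07 with fTyS. Fads2, the desaturase of the step before, was at 9.01, 9.05 and 9.17 with radiation and at 9.22, 9.25 and 9.24 with radiation+SEW and 9.23, 9.35 and 9.21 with radiation+FTY. Its groups did not overlap in either, but the differences of 0.16 and 0.19 were not called. Scd1, the main stearoyl-CoA desaturase, stood near the top of the scale at 13.12 to 13.21 with radiation and 13.22 to 13.36 on the 9 arrays with a compound, higher on each. Scd2 (0.03, 0.06 and 0.06), Elovl5 (-0.04, -0.02 and -0.13) and Elovl1 (0.11, 0.23 and 0.10), which elongate or desaturate long chains, were not called.

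The remaining 6 fatty acid genes behaved differently from these, and were set apart after their values had been seen, so that no test is given. They are Acly, which makes cytosolic acetyl-CoA from citrate, Acss2, which makes it from acetate, Me1, which supplies NADPH, Acaca, which makes malonyl-CoA, Fasn, fatty acid synthase, and Elovl6, which lengthens its product. Elovl6 was at 8.33, 9.59 and 9.13 with radiation and at 11.41, 9.58 and 11.11 with radiation+FTY, and Acss2 was at 9.03, 9.52 and 9.37 and at 11.11, 9.76 and 11.01. In both genes 2 of the 3 radiation+FTY arrays stood far above the radiation arrays and the other was close to them. The differences of the 6 genes with radiation+FTY were larger than any of the sterol branch for Elovl6 (1.68 ± 0.86), Acss2 (1.32 ± 0.50) and Acaca (1.12 ± 0.47), and were 0.75, 0.65 and 0.63 for Acly, Me1 and Fasn, and none was called.

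These 6 genes followed the adipocyte markers from array to array. Over the 25 arrays, which share the tissue sampling and the scaling, their Pearson r with the adipocyte mean was 0.81 to 0.91, and 0.86 to 0.93 after the group means were removed. For the other 6 fatty acid genes r was -0.72 (Scd2) to 0.23 (Scd1), and for the 18 sterol genes -0.26 to 0.66 with a median of -0.03. The r of Scd1 is that of a probe set near the top of the scale. Its other probe set, with a mean of 10.87, differed by 0.91, 0.76 and 1.17 with fTyS, SEW and FTY added to radiation. That probe set was not set against the adipocyte mean, so the place of Scd1 in this split is uncertain. After the group means were removed, r of the sterol genes ran from -0.41 to 0.75 with a median of 0.14. It was 0.75 for Fdft1, 0.72 for Nsdhl, 0.71 for Sc5d and 0.50 for Tm7sf2, against 0.16 for Dhcr7 and 0.14 for Cyp51, and among the regulators it was 0.72 for Srebf1. The mean of the 6 genes spanned 1.75 over the arrays, from 10.14 to 11.90, against 0.50 for the sterol mean and 0.32 for the other 6. The adipocyte mean was 10.74, 9.02 and 10.46 on the radiation+FTY arrays and 8.06, 9.09 and 8.51 on the radiation arrays, so that the array with the lowest value of the 6 genes within radiation+FTY, replicate 2, also had the lowest adipocyte mean.

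**Figure D4:**
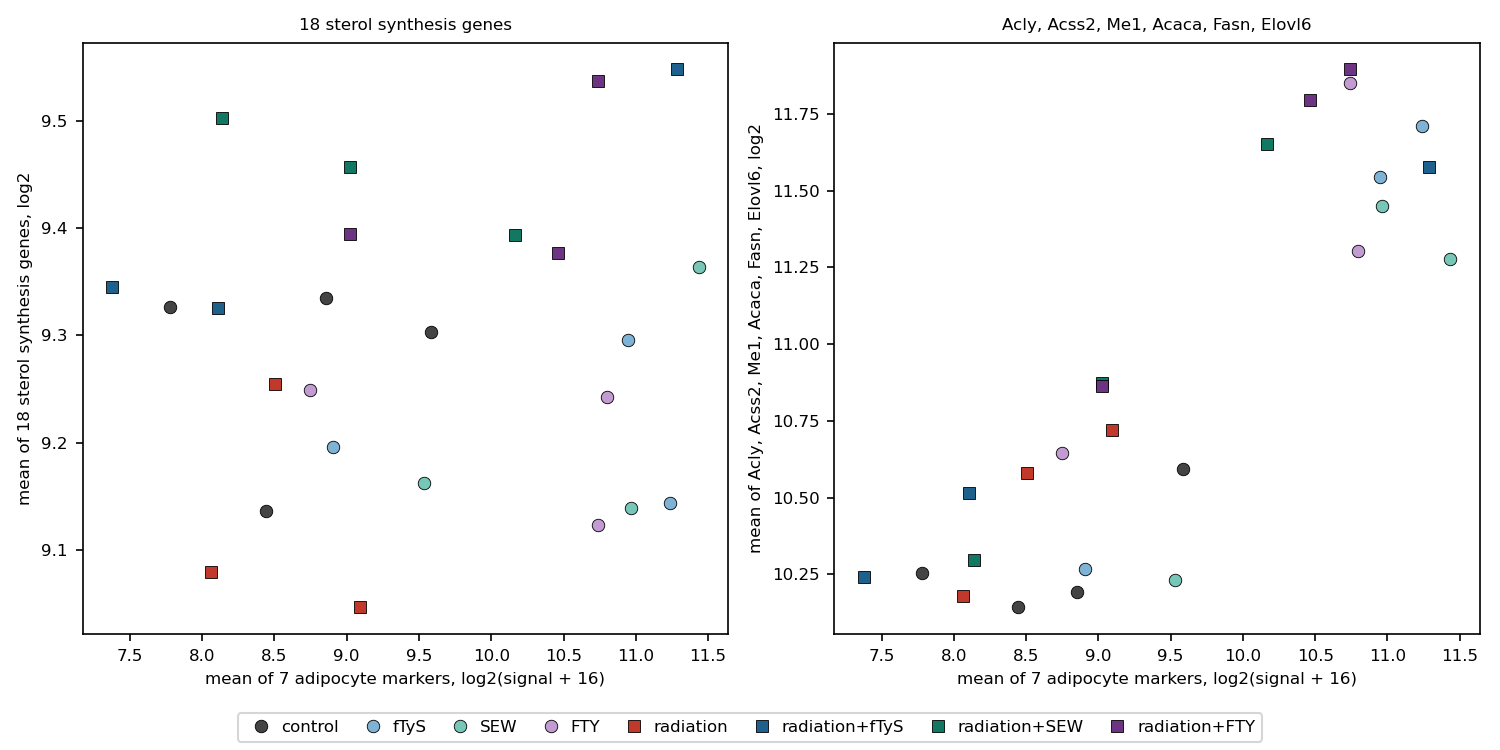
Mean of the 18 sterol genes (left) and of Acly, Acss2, Me1, Acaca, Fasn and Elovl6 (right) against the mean of 7 adipocyte markers, in log2(signal + 16), with a point for each of the 25 arrays coloured by group. The right panel follows the adipocyte mean with a span of 1.75, while on the left the 9 arrays of radiation with a compound lie above the 3 radiation arrays, whose adipocyte means run only from 8.06 to 9.09.

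With the adipocyte mean added to the fit as a covariate, the differences of the 6 genes between radiation+FTY and radiation shrank to between 0.18 (Me1) and 0.53 (Acss2), with Elovl6 at 0.32, Acaca at 0.35, Acly at 0.32 and Fasn at 0.24. Dhcr7 (0.81), Fdft1 (0.47) and Fads1 (0.36) were called with the covariate, which left 3 of 8 calls. The differences of the other 5 were 0.51 for Cyp51, 0.51 for Tm7sf2, 0.28 for Nsdhl, 0.40 for Insig1 and 0.31 for Srebf1, with adjusted p from 0.0535 to 0.0988. The median of the 18 sterol genes went from 0.30 to 0.26. In radiation+SEW against radiation the count went from 3 to 5, with Fdft1 and Insig1 added to Cyp51, Dhcr7 and Tm7sf2. The share of all genes called with the covariate is not given, so these counts cannot be set against it.

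**Figure D5:**
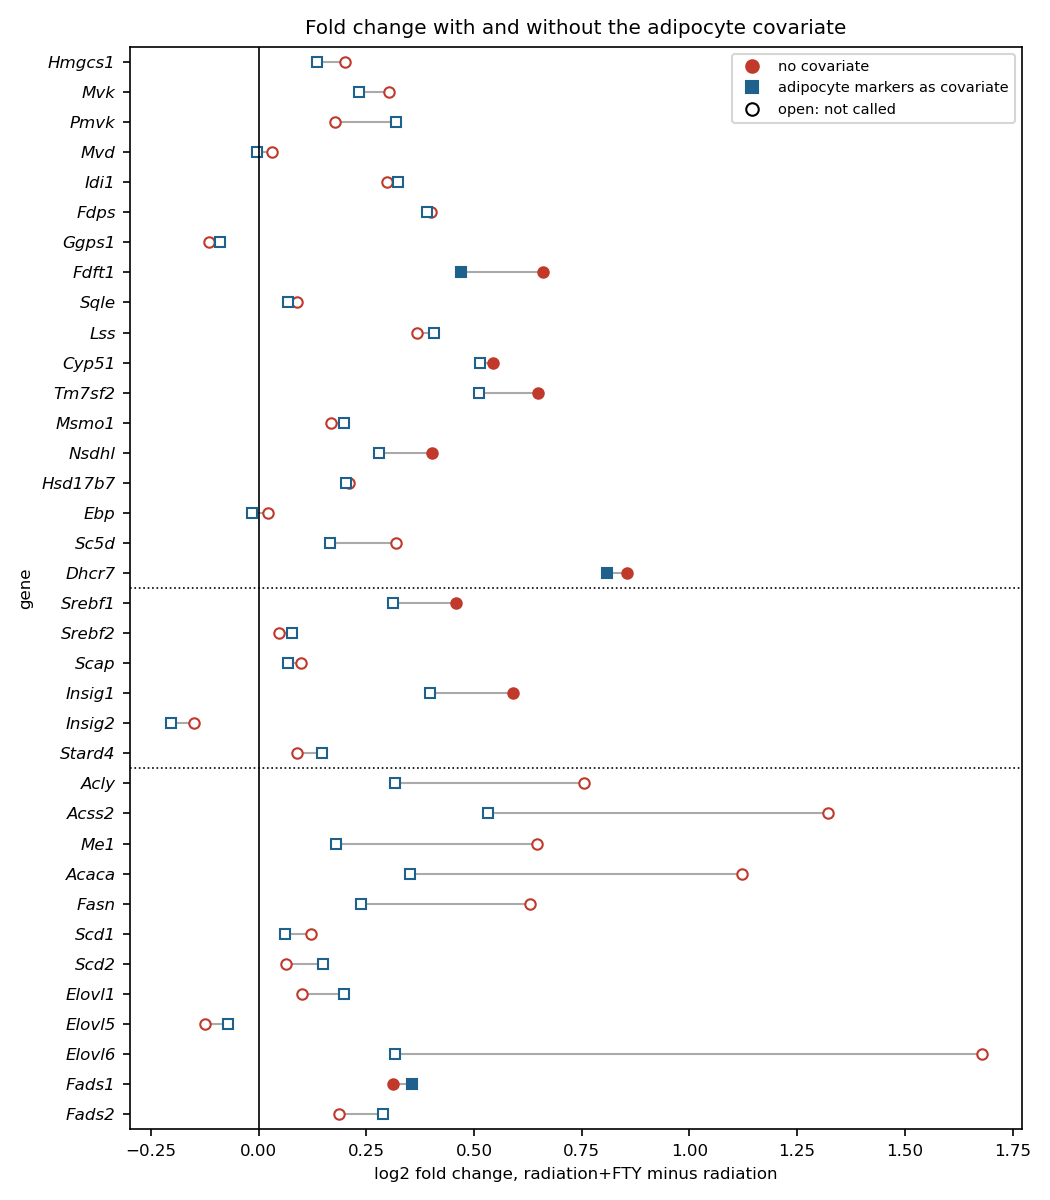
Log2 fold changes of the 36 genes for radiation+FTY minus radiation without (red circles) and with (blue squares) the adipocyte marker mean as a covariate, with filled symbols for called genes. Elovl6 goes from 1.68 to 0.32 and Acss2 from 1.32 to 0.53, while Dhcr7 stays at 0.86 and 0.81 and Fads1 at 0.31 and 0.36.

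The comparison of radiation with control shows the exposure without any compound. Sterol genes were mostly lower, 14 of 18 below 0 with a median of -0.19 against -0.01 over all genes, and Idi1 and Stard4 fell. No member rose. Among all genes 2.11% were called lower and 2.29% higher. Idi1 was at 10.46, 10.68, 10.88 and 10.57 on the control arrays, 1 of which overlapped with the highest radiation array at 10.50, and fell by 0.38 ± 0.11 (adjusted p = 0.0496). Stard4 was at 10.01, 10.29, 10.51 and 10.13 in control, just above the highest radiation array at 9.99, and fell by 0.38 ± 0.11 (adjusted p = 0.0475). Both calls were close to the threshold, and each was lost on leaving out 19 of the 25 arrays in turn. Dhcr7 (-0.42 ± 0.16, adjusted p = 0.173), Insig1 (-0.37 ± 0.13, adjusted p = 0.141) and Lss, which closes the sterol rings (-0.33), were lower without a call. Without control replicate 4, 3 members fell, Ggps1 with Idi1 (-0.41) and Stard4 (-0.42). The fatty acid genes had a median of 0.04.

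In unirradiated lung, each compound was set against control. SEW lowered 3 members, Stard4, Scd2 and Fads2, FTY lowered Stard4, and fTyS changed 0 of 36, of which 7 had an unadjusted p under 0.05. Of all 12937 genes, 1942 had such a p with fTyS. No member rose with any compound. Among all genes 10.8% were called lower with SEW, 2.25% with FTY and 0.0928% with fTyS (3.77%, 0.479% and 0.085% higher), so that 3 of 36 with SEW is near the share of all genes. Stard4 was at 9.58, 9.83 and 9.55 with SEW, below every control array, at 9.72, 10.03 and 9.73 with FTY, where 1 array overlapped, and at 9.98, 9.92 and 10.10 with fTyS. It fell by 0.58 ± 0.11 with SEW (adjusted p = 0.00228) and by 0.41 ± 0.11 with FTY (adjusted p = 0.0432), and the difference with fTyS was -0.23 ± 0.11 (adjusted p = 0.313). With the adipocyte covariate the Stard4 difference with FTY was -0.36 and not called (adjusted p = 0.0869), Fdft1 was called lower in its place, and the Stard4 call with FTY was also lost on leaving out 13 of the 25 arrays in turn. The SEW call of Stard4 held with the covariate (-0.51) and without each of the 25 arrays, and without control replicate 4 its difference was -0.62. Without that array Stard4 was the 1 member called with FTY (-0.45), and 0 were called with fTyS.

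Scd2 was at 12.54, 12.69 and 12.55 with SEW and at 12.77, 12.69, 12.80 and 12.87 in control, and fell by 0.19 ± 0.06 (adjusted p = 0.0293). Fads2 was at 8.87, 8.86 and 8.90 with SEW and between 8.99 and 9.45 in control, and fell by 0.29 ± 0.10 (adjusted p = 0.0488). The groups did not overlap in either gene, although the nearest arrays of Scd2 were both at 12.69. Both calls were lost without control replicate 4, where Stard4 was called lower and Pmvk, the kinase after Mvk, higher, and that of Fads2 was lost without any of 20 arrays in turn. With the adipocyte covariate neither was called (Scd2 -0.08, Fads2 -0.16), and Stard4, Fdft1, Insig2 and Srebf1 were called lower and Pmvk higher. Adipocyte markers were higher than in control in 7 of 7 with each compound, none called. Their unadjusted p was under 0.05 for 2 with fTyS, 7 with SEW and 0 with FTY. The count of synthesis members called in SEW against control, 3 with all arrays, also depended on single arrays. This member count was 7 without control replicate 1 and 5 without radiation+fTyS replicate 2. It was 1 without control replicate 3, SEW replicate 1 or SEW replicate 3. The sterol medians were -0.05 with fTyS, -0.13 with SEW and -0.11 with FTY. Fatty acid medians were 0.28, 0.24 and 0.34, beside adipocyte marker medians of 1.66, 2.11 and 1.26, and Elovl6 differed by 2.05, 1.69 and 2.24 (SE 0.80 each), none called.

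Radiation with a compound was also set against the same compound alone, to find the effect of radiation under the compound. Here 10 of 36 members rose with SEW (13.8% of all genes were called higher and 3.92% lower), 6 rose and 1 fell with FTY (9.13% higher, 4.99% lower) and 1 rose with fTyS (0.332% higher, 0.124% lower). Cyp51 rose by 0.58 ± 0.12 under SEW (adjusted p = 0.00419) and by 0.54 ± 0.12 under FTY (adjusted p = 0.00906), and Dhcr7 by 0.67 ± 0.17 and 0.62 ± 0.17 (adjusted p = 0.0121 and 0.0226). Fdft1 rose by 0.44 and 0.64, Srebf1 by 0.42 and 0.38, Fads1 by 0.23 and 0.21, and Elovl1, which makes very long chains, by 0.56 and 0.50. Under SEW Stard4 (0.46), Scd2 (0.27), Fads2 (0.36) and Mvk (0.41), the kinase of mevalonate, rose as well, and under FTY Ggps1 fell by 0.23. Adipocyte markers were lower in 7 of 7 under SEW, with a median of -1.17 and none called, and over the 25 arrays Scd2, Fads2 and Elovl1 had an r with their mean of -0.72, -0.57 and -0.54. With the adipocyte covariate Fads1 under SEW was no longer called (0.18, adjusted p = 0.0510), while the other 9 were, Scd2 at 0.18, Fads2 at 0.26 and Elovl1 at 0.46. Under fTyS Fdps rose by 0.73 ± 0.15 (adjusted p = 0.0445), from 9.62, 9.73 and 9.78 to 10.34, 10.72 and 10.26.

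Elovl1 was at 12.14, 12.17 and 11.90 with SEW and 12.08, 12.20 and 11.71 with FTY, against 12.60, 12.53 and 12.74 with radiation+SEW and 12.46, 12.54 and 12.50 with radiation+FTY. The irradiated arrays were above the unirradiated ones in both pairs. In radiation against control Elovl1 differed by 0.01, with control arrays between 12.14 and 12.63. The calls of Cyp51 and Elovl1 under SEW and of Fdft1 under FTY held without each array and in every alternative run. The count under SEW was 6 without SEW replicate 2 or radiation+SEW replicate 2 and 4 without radiation+SEW replicate 3. Under FTY it was 3 without FTY replicate 1, radiation+FTY replicate 1 or radiation+FTY replicate 2 and 4 without FTY replicate 2.

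Whether radiation acted differently with a compound than without was tested by the interaction, the difference between radiation+compound and compound less that between radiation and control. With SEW 11 of 36 members had a higher difference (10.5% of all genes), with FTY 5 (4.77%) and with fTyS 2 (0.989%), and 0 had a lower one (3.41%, 2.07% and 0.363% of all genes). The interaction of Dhcr7 was 1.09 ± 0.24 with SEW (adjusted p = 0.00626), where radiation gave -0.42 without SEW and 0.67 with it, and 1.04 ± 0.24 with FTY (adjusted p = 0.0154). Cyp51 had 0.79 ± 0.17 and 0.74 ± 0.17 (adjusted p = 0.00626 and 0.0161), and Fdft1 0.71 ± 0.20 and 0.91 ± 0.20 (adjusted p = 0.0258 and 0.0144). Stard4 had 0.84 ± 0.16 with SEW (adjusted p = 0.00263), since radiation gave -0.38 without SEW and 0.46 with it. Idi1 was the only member with a call for all of the compounds, at 0.67 with fTyS, 0.61 with SEW and 0.53 with FTY, and these share the radiation and control arrays. These Idi1 calls were lost on leaving out 9, 2 and 18 of the 25 arrays in turn. They were also lost in 4, 0 and 4 of the 7 alternative runs. Fdps had 0.86 ± 0.21 with fTyS (adjusted p = 0.0490).

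The interactions with SEW also included Hsd17b7, a ketoreductase of the demethylation steps (0.59), Srebf1 (0.54), Elovl1 (0.54), Fads2 (0.45), Fads1 (0.38) and Scd2 (0.25), and that with FTY Fads1 (0.36). Without control replicate 4 the counts were 9 with SEW, 4 with FTY and 1 with fTyS, for which no share of all genes is given. The count with SEW was 6 without control replicate 3 or SEW replicate 3 and 4 without radiation replicate 1 or radiation+SEW replicate 3. With FTY it was 3 without control replicate 3, radiation replicate 1 or radiation+FTY replicate 3 and 8 without control replicate 1, and with fTyS it was 0 or 1 on leaving out any of 20 arrays in turn and 3 without control replicate 1 or radiation replicate 3. The interactions use the same arrays as the comparisons above and are not independent of them.

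The compounds were compared with each other at the same dose and schedule, in 6 pairs, 3 with and 3 without radiation, with p-values adjusted over all genes within each pair. No member was called in any pair, and members with an unadjusted p under 0.05 numbered 1 (radiation+fTyS against radiation+SEW), 5 (radiation+fTyS against radiation+FTY), 2 (radiation+FTY against radiation+SEW), 3 (fTyS against SEW), 3 (fTyS against FTY) and 0 (FTY against SEW). The share of all genes with such a p is not given for these pairs, so these counts cannot be read as particular to the members. Among all genes 3.95% were called between radiation+fTyS and radiation+FTY, 1.55% between fTyS and SEW, and 0% in the other 4 pairs. Dhcr7 differed by -0.17 between radiation+fTyS and radiation+SEW (95% confidence interval -0.53 to 0.19), by -0.26 between radiation+fTyS and radiation+FTY (-0.62 to 0.10), and by 0.09 between radiation+FTY and radiation+SEW (-0.26 to 0.45). Fdft1 was lower with radiation+fTyS than with radiation+FTY by a mean of -0.35 (-0.66 to -0.04, adjusted p = 0.178). Cyp51 differed by -0.13 (-0.39 to 0.13) in both pairs with fTyS and by 0.00 (-0.26 to 0.26) between FTY and SEW. The half-width of the interval was 0.26 at the median over the 36 members and up to 1.79 for Elovl6. Over the 216 intervals of 36 members and 6 pairs, the bound farther from 0 was 0.35 at the median. It reached 3.08 for Elovl6 between radiation+fTyS and radiation+FTY (-3.08 to 0.50). A p above the threshold does not show that the phosphonate, FTY720 and SEW-2871 act alike.

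The closest pair differences to a call were those of Insig2, higher with radiation+fTyS than with radiation+FTY by 0.21 (0.08 to 0.34, adjusted p = 0.0635), and of Stard4, higher with fTyS than with SEW by 0.35 (0.11 to 0.59, adjusted p = 0.107). Fdps was lower with fTyS than with SEW by a mean of -0.45 (-0.77 to -0.12, adjusted p = 0.127).

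Among the comparisons with control or with radiation, genes that handle sterol and fatty acids outside the synthesis pathway were called most often with SEW alone. They were called seldom where a compound was added to radiation. The shares of all genes called were also largest with SEW alone (3.77% higher and 10.8% lower), so this order is not particular to these genes. Of 15 tested genes of sterol uptake, efflux and sensing, 1 rose with radiation against control (2.29% of all genes). Of the same 15, 1 fell with radiation+SEW against radiation (1.11% of all genes), and 0 were called with radiation+fTyS or radiation+FTY against radiation. In these comparisons the called gene was Ch25h, whose enzyme makes 25-hydroxycholesterol, a sterol that holds SREBPs back. Its level was 8.68, 8.61, 8.63 and 9.03 in control, 9.18, 9.15 and 9.41 with radiation, 9.05, 8.87 and 9.22 with radiation+fTyS, 8.35, 8.56 and 8.63 with radiation+SEW and 8.43, 8.81 and 8.82 with radiation+FTY. The radiation arrays were above all control arrays and above all arrays of radiation with SEW or FTY, and overlapped with those of radiation+fTyS. Ch25h rose by 0.51 ± 0.14 with radiation (adjusted p = 0.0490) and fell by 0.73 ± 0.15 with radiation+SEW against radiation (adjusted p = 0.0168). In unirradiated lung it was 8.67, 8.58 and 9.12 with fTyS, 8.13, 8.35 and 8.31 with SEW and 8.32, 8.35 and 7.94 with FTY, and it fell with SEW by 0.47 (adjusted p = 0.0330) and with FTY by 0.53 (adjusted p = 0.0499). Without control replicate 4, which stood at 9.03, the differences from control were 0.60 with radiation (adjusted p = 0.0142), -0.38 with SEW (adjusted p = 0.0868) and -0.44 with FTY (adjusted p = 0.110), and the SEW and FTY calls were lost.

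With SEW alone against control, 2 of the 15 sterol handling genes rose and 5 fell, where 3.77% of all genes were called higher and 10.8% lower. Without control replicate 4 these counts were 2 and 2, an alternative added after the data were seen, and Ch25h, Abcg1 and Scarb1 were no longer called. Those with the smallest adjusted p were Cyp27a1 (0.35), a sterol hydroxylase, Mbtps1 (-0.18), the protease that makes the first cut in SREBPs, Ch25h, and Mylip (-0.40), which marks lipoprotein receptors for breakdown. Of 18 tested genes of other fatty acid and triglyceride metabolism, 0 were called with any compound added to radiation or with radiation alone, and Acsl4 (-0.33), an acyl-CoA synthetase for arachidonic acid, and Lpcat1 (-0.44), an enzyme of surfactant phospholipid, fell with SEW alone, 2 of 18 beside the 10.8% of all genes. Of 11 tested fatty acid oxidation genes, Cpt1a, which brings fatty acids into mitochondria, fell by 0.37 ± 0.10 with radiation+SEW against radiation (adjusted p = 0.0473), and 0 were called with radiation+fTyS, radiation+FTY or radiation alone. In radiation+SEW against radiation 1.11% of all genes were called lower.

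Other probe sets of the same genes were compared where they passed the filter. A second Cyp51 probe set gave 0.29, 0.57 and 0.47 for radiation with fTyS, SEW and FTY against radiation, a second Fdft1 probe set 0.21, 0.30 and 0.53, and a second Idi1 probe set 0.32, 0.44 and 0.45, in the same direction as the ones used. The other 4 Hmgcs1 probe sets were all above 0 in these comparisons. Of 38 other probe sets above the filter, of 25 genes, 5, 7 and 8 had the opposite sign to the one used when fTyS, SEW or FTY was added to radiation. The difference between probe sets was large for Mvd, where the second probe set gave 0.22, 0.48 and 0.61 against -0.09, 0.06 and 0.03, for Mvk, where it gave 0.00, -0.01 and -0.19 against 0.03, 0.32 and 0.30, and for Scd1, where a probe set with a lower mean gave 0.91, 0.76 and 1.17 against 0.15, 0.13 and 0.12. A second Msmo1 probe set was opposite in all of the comparisons (-0.18, -0.06 and -0.09 against 0.39, 0.32 and 0.17). With radiation+FTY, Hsd17b7 (-0.10 against 0.21), Insig2 (0.07 against -0.15), Elovl1 (-0.09 against 0.10), Stard4 (-0.06 against 0.09) and Scd2 also had a probe set of the opposite sign, and with radiation+fTyS Fads1 did (-0.05 against 0.16). The remaining genes with an opposite sign in some comparison were Ggps1, Srebf2 and Elovl5. Dhcr7, Tm7sf2, Nsdhl, Insig1 and Srebf1 have no other probe set with their symbol alone.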

How the data were processed

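Whole-lung RNA (6 ug, Trizol) of separate mice was hybridised to 1 Affymetrix array each, per the labels' protocols. The deposited values are linear intensities per probe set, scaled by the authors with GCOS per the submitters' processing notes; its version and target are not given in the sources used here. Array medians of 118.05 to 129.28 show similar scaling, and values run from 0.53 to 19112. The number of arrays, not read depth, limits the precision.

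Of 45101 probe sets, 64 controls were left out, and 34945 had 1 symbol in the platform annotation, 932 several and 9160 none. Each gene was read from its single-symbol probe set with the highest mean of log2(intensity + 16), and genes whose mean was below the 40th percentile of probe sets (6.49) were left out. limma 3.58.1 in R 4.3.3 (lmFit on 8 group means over all 25 arrays, which leaves 17 residual degrees of freedom, then eBayes with a mean-variance trend) gave two-sided tests for 19 comparisons, each adjusted by Benjamini-Hochberg over 12937 genes and called at an adjusted p of at most 0.05. Python 3.11.15, pandas 2.3.3 and matplotlib 3.10.9 were used for the rest. The fit was tested on simulated data.

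The genes given array by array are the up to 4 members with the smallest adjusted p among those called in each comparison of radiation with a compound against radiation, or of radiation or a compound against control, and the regulators Srebf1, Srebf2, Insig1 and Insig2; other lipid genes were named where called, up to 4 per list and comparison. Members and lists were chosen with earlier results of these data known. Alternatives were quantile normalization, a pseudocount of 64, no filter, the mean of all probe sets, the replicate number as a block, only the arrays compared, the adipocyte mean as a covariate, and leaving out each array. Replicate numbers were checked for pairing: same-numbered arrays deviated together, with every correlation over 0.1, in 5 comparisons (fTyS or radiation against control, both comparisons of radiation+fTyS with its parts, and FTY against SEW), over a range of -0.81 to 0.78 in all.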

Additional observations from a re-analysis of the deposited data

Results flagged for a closer look

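In the control group, Elovl5 was at 12.21 on the array of replicate 2 against 12.44, 12.41 and 12.42 on the others, a gap large for the range of 4 arrays. Of 36 genes checked in this way 1 stood out, and chance gives about 1 in 20.

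The effect of radiation differed with and without a compound, by limma's interaction at an adjusted p of at most 0.05, for 18 pairs of gene and compound, as log2 differences. With fTyS these were Idi1 (0.67) and Fdps (0.86). With SEW they were Idi1 (0.61), Fdft1 (0.71), Cyp51 (0.79), Hsd17b7 (0.59), Dhcr7 (1.09), Srebf1 (0.54), Stard4 (0.84), Scd2 (0.25), Elovl1 (0.54), Fads1 (0.38) and Fads2 (0.45). With FTY they were Idi1 (0.53), Fdft1 (0.91), Cyp51 (0.74), Dhcr7 (1.04) and Fads1 (0.36).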

How the results depend on the processing

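Of 53 calls of members, 7 held under all 7 alternatives and without each of the 25 arrays: Stard4 in SEW against control, Cyp51 and Elovl1 in radiation+SEW against SEW, Fdft1 in radiation+FTY against FTY, and the SEW interactions of Cyp51, Dhcr7 and Stard4. No call changed its sign. Calls lost numbered 30 with probe sets averaged, 29 with only the arrays compared (fewer arrays to estimate the spread), 15 with quantile normalization, 15 with no filter (more genes tested), 12 with the replicate block, 9 with the adipocyte covariate and 1 with a pseudocount of 64; where no construction is given, the cause was not tested.

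Shares of all genes called are not given for the alternatives, so the counts below cannot be set against them. Counts of members called that moved by over 1.5 times were as follows. For radiation against control (2) the count was 0 with quantile normalization, no filter or only the arrays compared and 1 with probe sets averaged. For SEW against control (3) it was 1 with probe sets averaged or only the arrays compared and 5 with the covariate. For FTY against control (1) and for radiation+fTyS against fTyS (1) it was 0 with quantile normalization, no filter, probe sets averaged or only the arrays compared. For radiation+SEW against radiation (3) it was 5 with the covariate, and for radiation+FTY against radiation (8) it was 2 with probe sets averaged, 0 with only the arrays compared and 3 with the covariate. For radiation+SEW against SEW (10) it was 6 with probe sets averaged and 16 with the covariate, and for radiation+FTY against FTY (7) 3 with only the arrays compared. For radiation+fTyS against radiation+FTY (0) it was 1 with quantile normalization, 2 with probe sets averaged and 1 with the covariate. For the interaction with fTyS (2) it was 0 with quantile normalization, no filter or only the arrays compared and 1 with probe sets averaged. For that with SEW (11) it was 7 with probe sets averaged, and for that with FTY (5) 3 with quantile normalization, 2 with probe sets averaged, 1 with only the arrays compared and 9 with the covariate.

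On leaving out 1 array the counts ranged from 0 to 3 for radiation against control, 1 to 7 for SEW and 0 to 2 for FTY against control, 0 to 3, 0 to 5 and 0 to 8 for radiation+fTyS, radiation+SEW and radiation+FTY against radiation, 0 to 1, 4 to 11 and 3 to 8 for these against the compound alone, 0 to 2 for radiation+fTyS against radiation+FTY, and 0 to 3, 4 to 12 and 3 to 8 for the interactions with fTyS, SEW and FTY.

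With the replicate number as a block, the interaction counts were 1 with fTyS, 7 with SEW and 6 with FTY. In the 5 comparisons where every correlation of same-numbered arrays was over 0.1, the block moved radiation against control from 2 to 3 and changed no other count. Correlations elsewhere could all be negative, as in SEW against control (-0.41, -0.80 and -0.22), so the numbers are not shown to pair the arrays. In all, 7 of 25 arrays correlated best with their own number.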

Other observations

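Outside the synthesis genes, Npc1, which exports sterol from lysosomes, fell with radiation+SEW against SEW (-0.28) and with radiation+FTY against FTY (-0.35), and was higher with radiation+fTyS than with radiation+FTY by 0.27 (adjusted p = 0.0424). Abca1, the sterol exporter, and Scarb1, a receptor for high-density lipoprotein, rose with radiation+FTY against FTY by 0.31 and 0.29. The interaction of Acsl4 was 0.51 with SEW and 0.52 with FTY, and that of Lpcat1 was 0.58 with SEW, all by limma at an adjusted p of at most 0.05.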
